A study of Mus musculus with 4 samples.

Results

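The genes described here encode the muscle acetylcholine receptor and the proteins that place and serve it at the neuromuscular junction, the synapse between motor nerve and muscle fibre. They were chosen by name: 5 receptor subunits (Chrna1, Chrnb1, Chrnd, Chrng and Chrne), 3 genes of the clustering pathway (Musk, Rapsn and Dok7), the acetylcholine-splitting enzyme gene Ache and the adhesion molecule gene Ncam1. All 10 had a row of their own among the 18091 rows of the value table. Messenger RNA was measured in quadriceps of male CD-1 mice aged 5 weeks, with 2 samples labelled Lin28A Tg (transgenic) and 2 labelled WT (wild type), each on an Illumina Ref-8 bead array. The labels give neither the promoter of the transgene nor the cells that express it, and do not say whether samples were pooled, so the p-values reflect nothing but how these samples vary, which may be technical. The number of arrays limits the precision.

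The muscle receptor is a pentamer of alpha, beta and delta subunits with a gamma subunit in fetal muscle, which an epsilon subunit replaces after birth as the synapse matures. Nerve-derived agrin binds Lrp4, which activates the kinase MuSK; with the adaptor Dok7 this leads to rapsyn-driven clustering of receptors under the nerve terminal. In adult mice the receptor genes are transcribed mainly by the few nuclei below the synapse, and electrical activity keeps them low elsewhere in the fibre, so whole-muscle RNA holds little of most of these transcripts. In whole tissue, fewer cells or nuclei of a kind and less RNA in each cannot be told apart.

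The RNA came from muscle by its markers: all 9 fibre genes examined lay above the background threshold, an intensity of 90.0 that marks a probe as brighter than unexpressed probes, on at least 2 arrays. Across the 7891 genes tested, log2 intensities of the arrays correlated at r = 0.976 to 0.990. The summed intensity of 11 liver genes was 18700 on WT replicate 1 and 1105 to 1268 on the other arrays. Of these genes, Alb and Fgb were below the threshold on all 4 arrays. The summed intensity of 8 slow-fibre genes was 9467 on WT replicate 2 and 1495 to 3785 on the others. Among them, Myh7 and Tnni1 were below the threshold on all 4 arrays. Lin28a itself lay below the threshold on all 4 arrays, at 86.4 and 88.0 in transgenic and 82.9 and 82.6 in wild-type muscle, so its probe does not check the labels. The position of that probe was not examined.

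The 250 bases upstream of the annotated start are shown for the 4 receptor subunits that were above background, because the myogenic factors that drive these genes bind E-boxes there, and the epsilon gene is the textbook case of an N-box, an Ets-factor element of synaptic transcription. The sequences are from RefSeq, build GRCm38.p6, read 5′ to 3′ on the gene's own strand. Capitals mark each match to CANNTG (E-box, the same on both strands) and to CCGGAA on either strand (N-box); no match of one motif overlapped the other.
Chrna1, chr2:73580339-73580588, minus strand: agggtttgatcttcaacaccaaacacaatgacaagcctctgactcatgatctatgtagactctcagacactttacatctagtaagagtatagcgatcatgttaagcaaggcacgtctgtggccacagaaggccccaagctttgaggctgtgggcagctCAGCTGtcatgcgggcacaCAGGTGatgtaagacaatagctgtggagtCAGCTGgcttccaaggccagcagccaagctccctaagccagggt
Chrnb1, chr11:69795938-69796187, minus strand: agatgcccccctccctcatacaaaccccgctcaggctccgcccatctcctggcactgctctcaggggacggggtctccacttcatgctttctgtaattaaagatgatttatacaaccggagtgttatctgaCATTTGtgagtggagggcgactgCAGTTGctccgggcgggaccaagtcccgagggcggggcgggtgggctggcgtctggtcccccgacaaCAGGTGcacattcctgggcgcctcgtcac
Chrng, chr1:87205561-87205810, plus strand: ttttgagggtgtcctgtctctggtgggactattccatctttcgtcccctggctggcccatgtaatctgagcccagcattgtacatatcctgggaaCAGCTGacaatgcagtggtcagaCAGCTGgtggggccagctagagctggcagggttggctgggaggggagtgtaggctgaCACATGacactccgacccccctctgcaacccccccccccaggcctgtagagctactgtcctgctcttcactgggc
Chrne, chr11:70619195-70619444, minus strand: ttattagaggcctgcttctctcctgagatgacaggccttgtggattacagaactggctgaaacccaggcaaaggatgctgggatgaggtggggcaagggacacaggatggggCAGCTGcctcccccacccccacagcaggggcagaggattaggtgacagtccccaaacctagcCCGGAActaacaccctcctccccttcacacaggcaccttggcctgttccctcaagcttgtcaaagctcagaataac

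Of the 10 members, 7 had an upstream window in the sequence table, and Chrnd, Rapsn and Ncam1 are named only. All 7 held an E-box in at least 1 window, as did 66.2% of the 32851 windows in the table. The Chrna1, Chrnb1, Chrng and Musk windows held 3 E-boxes each, and 12.2% of all windows held 3 or more. Chrng, the fetal subunit, had CAGCTG at -155 to -150 and at -132 to -127, and CACATG at -75 to -70, counted from the annotated start. Chrne, the adult subunit, had 1 E-box at -138 to -133 and 1 N-box at -76 to -71. An N-box was found in 12% of all windows and in no other member's window. A match is a run of letters and shows no binding.

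**Figure D1:**
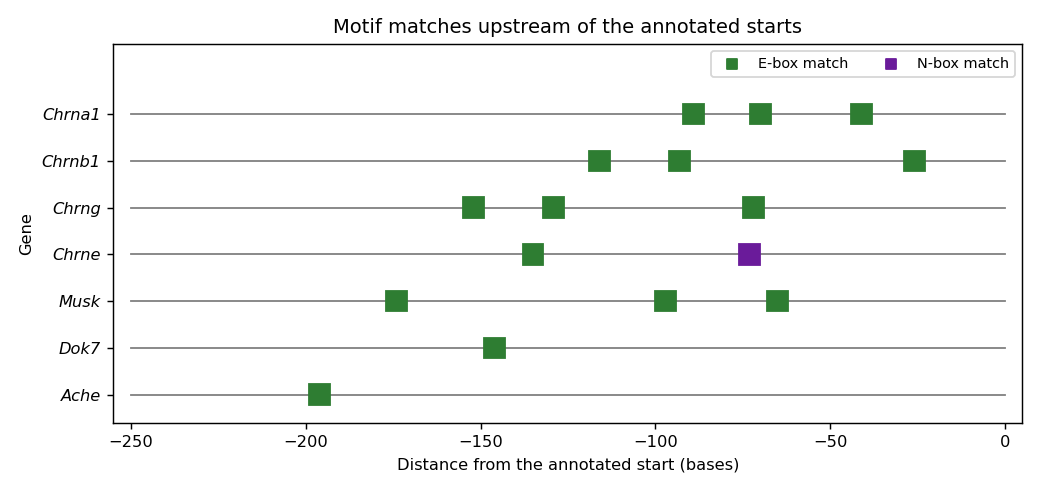
Matches to the E-box (green) and N-box (purple) in the upstream window of 7 genes, by distance in bases from the annotated start; each line is 1 window of 250 bases, and squares mark where a match lies, not its width. Chrna1, Chrnb1, Chrng and Musk have 3 E-boxes each and Chrne has the N-box; a further Dok7 window without a match is not drawn.

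No difference between the groups passed the test for any of these genes. Chrna1 and Chrnb1 had higher intensities on both transgenic arrays, Chrng was above background in transgenic muscle alone, Chrne overlapped between the groups, and Rapsn had lower intensities on both transgenic arrays. Musk, Chrnd and Dok7 were at or near background in both groups. Of the 10 members, 5 (Chrna1, Chrnb1, Chrne, Rapsn and Ache) exceeded the threshold on all 4 arrays, Ncam1 on 3 arrays, Chrng on the 2 transgenic arrays, Dok7 on 1 array, and Chrnd and Musk on none. The 7 above it on at least 2 arrays entered the fit; a row that entered through the transgenic arrays alone, as Chrng did, had to differ. No member passed an adjusted p of 0.05 with limma, nor did any of the 7891 genes (0.0% in either direction; smallest adjusted p = 0.366). At an unadjusted limma p under 0.05, Chrna1 was higher and no member was lower. Of all genes tested, 5.06% were higher and 3.81% lower at that level, 8.87% in all. Chrng was also higher at that level, but is not set against these shares, since the filter fixed its direction.

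**Figure D2:**
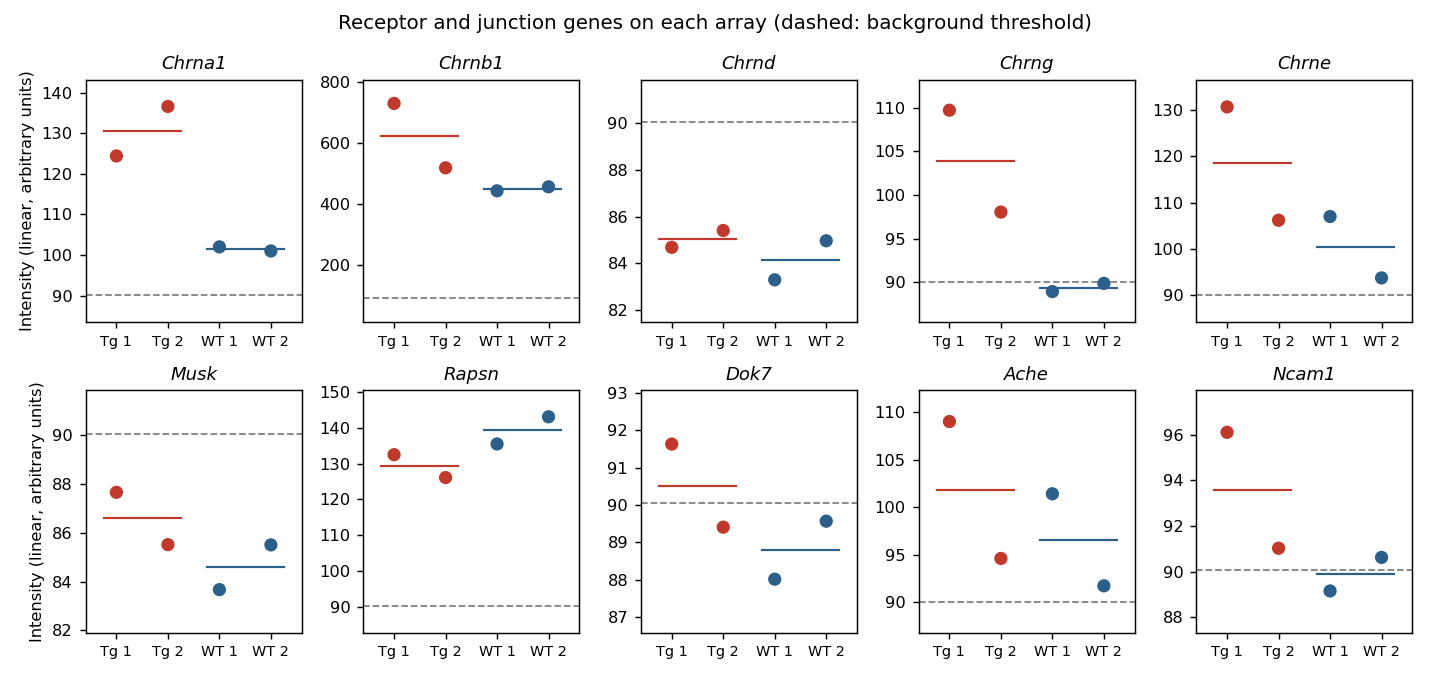
Linear intensity of each gene on each array (points; red transgenic, blue wild type), with group means (horizontal lines) and the background threshold of 90.0 (dashed); each panel has its own axis, which does not start at 0. Both transgenic points lie above both wild-type points for Chrna1, Chrnb1, Chrng and Ncam1 among the genes above the threshold on at least 2 arrays, and both lie below them for Rapsn.

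Chrna1 encodes the alpha subunit, which carries most of the acetylcholine-binding site and is present in fetal and adult receptors. It read 124.4 and 136.6 in transgenic samples 1 and 2 and 102.0 and 101.0 in wild-type samples 1 and 2. Both transgenic arrays were above both wild-type arrays, and the wild-type pair lay close together. The difference was a log2 fold change of 0.36 (SE 0.07, n = 2 per group), or 1.28-fold with a 95% interval of 1.12 to 1.47 (limma adjusted p = 0.482). Of all genes tested, 2.28% had a larger log2 fold change. It ranged from 0.29 to 0.43 when each array was left out in turn. Background was not subtracted from these values; after normexp background correction with an offset of 16 the log2 fold change was 0.77.

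Chrnb1, the beta subunit gene, is also part of both receptor forms. It read 728.6 and 517.7 in transgenic muscle and 442.5 and 455.5 in wild-type muscle. The groups did not overlap, and transgenic replicate 1 stood well above the other 3 arrays. The log2 fold change was 0.45 (SE 0.18), or 1.37-fold with a 95% interval of 0.979 to 1.91 (limma adjusted p = 0.583). It was 0.21 without transgenic replicate 1 and 0.70 without transgenic replicate 2. Of all genes tested, 1.31% had a larger log2 fold change.

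Chrnd, the delta subunit gene, read 84.7 and 85.4 in transgenic and 83.3 and 85.0 in wild-type muscle. These values are not well above background, so no fold is given for this subunit, and the 2 groups overlapped.

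Chrng encodes the fetal gamma subunit, whose transcript is normally lost from fibres in the weeks after birth and returns on denervation. It read 109.7 and 98.0 in transgenic muscle and 88.9 and 89.9 in wild-type muscle. Both transgenic arrays were above the background threshold and neither wild-type array was. Set against the lowest signal above the threshold on each wild-type array, the transgenic mean gave an estimate of at least 1.15-fold. This bound does not allow for how the samples vary, and the filter fixed its direction. The limma 95% interval of the fold, on the wild-type values as they stand, was 1.002 to 1.343. On those values the log2 fold change ranged from 0.133 to 0.295 when each array was left out in turn. The wild-type values are not well above background, so no exact fold is given.

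Chrne encodes the epsilon subunit of the adult receptor. It read 130.7 and 106.2 in transgenic muscle and 107.0 and 93.7 in wild-type muscle, above the threshold on every array. The groups overlapped, since wild-type replicate 1 was marginally above transgenic replicate 2. The log2 fold change was 0.23 (SE 0.13), or 1.18-fold with a 95% interval of 0.916 to 1.51 (limma adjusted p = 0.724). Leaving out transgenic replicate 1 gave 0.09 and leaving out wild-type replicate 2 gave 0.14, while 0.38 was obtained when transgenic replicate 2 was dropped. Normexp with an offset of 16 gave 0.53.

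Whether the fetal subunit shifted relative to the adult subunit could not be settled with these arrays. The log2 intensity of Chrng minus that of Chrne was -0.25 and -0.12 in transgenic and -0.27 and -0.06 in wild-type muscle. Group means were -0.18 ± 0.10 and -0.16 ± 0.15 (SD, n = 2 each), and the difference of -0.02 gave an exact two-sided permutation p of 1.0, where the smallest p this design allows is 0.333. The sign turned to 0.05 after normexp with an offset of 16, to 0.05 when transgenic replicate 1 was dropped and to 0.08 when wild-type replicate 2 was. Chrng was below the threshold in wild-type muscle, so the wild-type differences are not measurements of the fetal transcript above background. Levels of the probes are not compared here, only how their difference moved between groups.

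**Figure D3:**
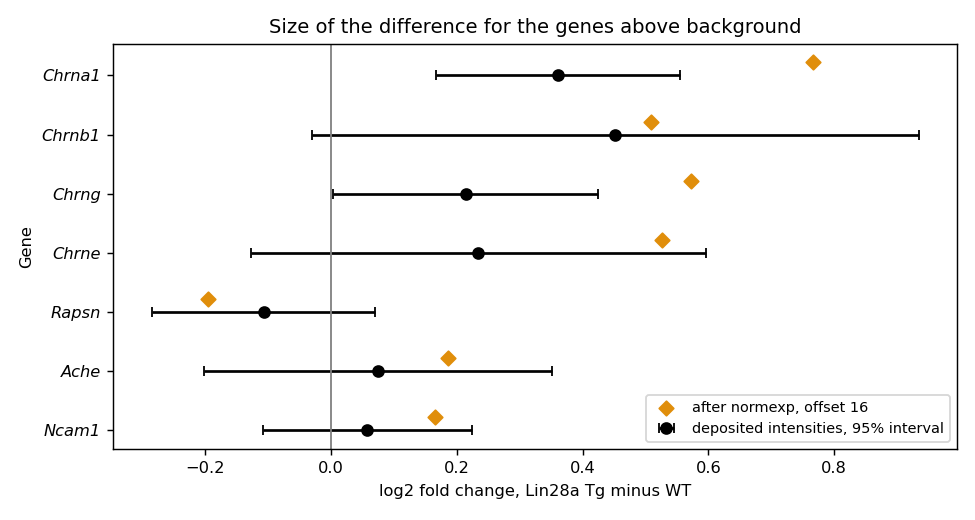
Log2 fold change of the 7 genes that entered the fit, transgenic minus wild type (black points; bars are 95% intervals from limma), and the same after normexp correction with an offset of 16 (orange diamonds). The interval of Chrna1 lies above 0 before adjustment over all genes, that of Chrng is drawn against wild-type values below the background threshold, and normexp gives larger differences for the dim genes, from 0.36 to 0.77 for Chrna1.

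Among the clustering genes, Rapsn was the 1 that could be measured, and its values lay on the other side. It encodes rapsyn, the scaffold that binds receptors to the cytoskeleton. It read 132.5 and 126.1 in transgenic and 135.5 and 143.1 in wild-type muscle, so both transgenic arrays were below both wild-type arrays. The log2 fold change was -0.11 (SE 0.07), or 0.928-fold with a 95% interval of 0.821 to 1.05 (limma adjusted p = 0.735). It ranged from -0.15 to -0.07 when each array was left out in turn.

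Musk, the agrin-activated receptor kinase gene, read 87.7 and 85.5 in transgenic and 83.7 and 85.5 in wild-type muscle, not well above background on any array. Dok7, whose product binds and activates MuSK from inside the cell, read 91.6 and 89.4 in transgenic and 88.0 and 89.6 in wild-type muscle. The 91.6 of transgenic replicate 1 was its sole value above the threshold. No fold is given for either gene.

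Ache encodes acetylcholinesterase, which ends transmission by splitting acetylcholine in the synaptic cleft. It read 109.0 and 94.6 in transgenic and 101.4 and 91.7 in wild-type muscle, and the groups overlapped. The log2 fold change was 0.07 (SE 0.10), or 1.05-fold with a 95% interval of 0.869 to 1.27 (limma adjusted p = 0.897). It was -0.03 without transgenic replicate 1, where the direction turned. Erythroid cells also make acetylcholinesterase in mice. The summed intensity of 7 erythroid genes, most of it from Hba-a1, was 27616 and 34698 in transgenic and 34552 and 23148 in wild-type muscle. Hbb-b1, close to the threshold, read 101.2 and 92.6 in transgenic and 95.8 and 90.3 in wild-type muscle, the same order over the arrays as Ache. Slc4a1, with the smallest p of the erythroid genes, read 103.7 and 142.6 in transgenic and 111.7 and 95.1 in wild-type muscle. That order, like that of the sum, was not the order of Ache. The part of erythroid RNA in the Ache values was not tested.

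Ncam1 encodes the neural cell adhesion molecule, which in mature muscle is found mainly at the junction and on satellite cells and spreads over denervated fibres. It read 96.1 and 91.0 in transgenic and 89.1 and 90.6 in wild-type muscle. The groups did not overlap, by a gap that was small beside the spread of the transgenic pair. The log2 fold change was 0.06 (SE 0.06), or 1.04-fold with a 95% interval of 0.927 to 1.17 (limma adjusted p = 0.855). It was 0.02 without transgenic replicate 1 and 0.10 without transgenic replicate 2. Satellite-cell genes had a summed intensity of 934 and 948 in transgenic and 880 and 881 in wild-type muscle over the 8 of 9 with a row. Of these, Itga7 and Vcam1, which are not genes of satellite cells alone, read higher on both transgenic arrays, and Sdc4 read lower. The defining markers Pax7 and Myf5, with Calcr and Met, were below the threshold on all 4 arrays. Schwann-cell and nerve genes summed to 1349 and 1390 in transgenic and 1328 and 1440 in wild-type muscle over 14 of 16, with S100b, Cdh19, Nefl, Nefm, Prph and Gap43 below it on all 4. The part of these cells in the Ncam1 values was not tested.

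By direction, the transgenic pair exceeded the wild-type pair without overlap for Chrna1, Chrnb1 and Ncam1, as for 21.6% of all genes tested, and was below it for Rapsn, as for 16.8%. Chrng is left out of this count, since the filter fixed its direction. Transgenic replicate 1 had the highest value for 5 of the 7, against 29.7% of the genes tested. Chrng is 1 of those 5, but the filter kept its highest value off the wild-type arrays. Over all 10 members the count was 7, adding Musk and Dok7, which were at or near background and not among the genes tested. Wild-type replicate 1, the array with the highest liver-gene sum, had the highest value for 0 members, against 21.0% of the genes tested. Without that array the log2 fold changes were 0.37 for Chrna1, 0.43 for Chrnb1 and -0.15 for Rapsn. Without wild-type replicate 2, the array with the highest slow-fibre sum, they were 0.35, 0.47 and -0.07 in the same order.

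**Figure D4:**
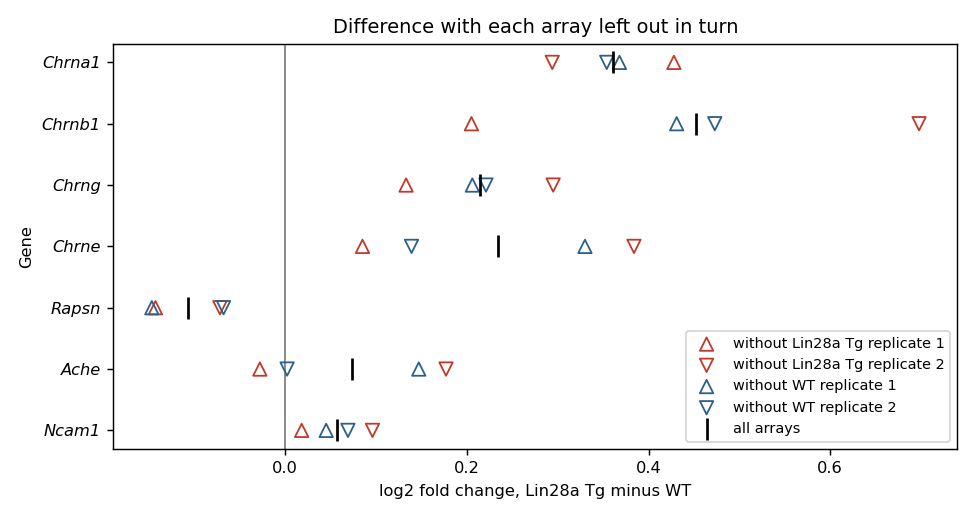
Log2 fold change of each of the 7 genes with all arrays (black bar) and with each array left out in turn (open triangles; red where a transgenic array and blue where a wild-type array was left out). Leaving out transgenic replicate 1 takes Chrnb1 from 0.45 to 0.21, Chrne from 0.23 to 0.09 and Ache from 0.07 to -0.03, whereas Chrna1 stays between 0.29 and 0.43.

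The partners of the members were read from fixed lists, beside a median log2 fold change of 0.01 over all genes tested, of which 53.3% had a positive difference, 5.06% were higher and 3.81% lower at an unadjusted limma p under 0.05. None of their genes passed an adjusted p of 0.05. Of 15 agrin signalling partners 8 entered the fit, 7 of them with a positive difference and 0 at an unadjusted limma p under 0.05, with a median of 0.09, which was 0.05 without wild-type replicate 1. Lrp4, the agrin receptor, read 95.6 and 94.6 in transgenic muscle against 88.1 and 89.6, below the threshold, in wild-type muscle. It is among the 7 positive genes, but it entered through the transgenic arrays alone, so the filter fixed its direction. Set against the lowest wild-type signals above the threshold, the estimate was at least 1.06-fold. The limma 95% interval, on the wild-type values as they stand, was 0.964 to 1.19. The adaptor gene Crkl, which acts downstream of Dok7, differed by 0.18 on the log2 scale (SE 0.08), and Src, a kinase that phosphorylates the receptor, by 0.11 (SE 0.06).

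Of 11 genes of the synaptic basal lamina and of cholinesterase anchoring, 6 entered the fit, 3 positive and 3 negative, with a median of 0.07 that ran from 0.003 without wild-type replicate 2 to 0.12 without transgenic replicate 2. Nid2, a nidogen gene concentrated in the synaptic basal lamina, had the smallest p of them. It read 320.8 and 273.1 in transgenic and 208.2 and 171.2 in wild-type muscle, 1.57-fold higher with a 95% interval of 1.21 to 2.03 (limma adjusted p = 0.482). Hspg2, the perlecan gene, had a log2 difference of 0.16 (SE 0.09). Prima1, a membrane anchor of acetylcholinesterase, read lower in transgenic muscle, at 91.0 and 91.7 against 98.0 and 103.8 (limma adjusted p = 0.622).

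Of 18 postsynaptic scaffold genes 11 entered the fit, 9 positive and 2 negative, with a median of 0.07, 2 higher and 0 lower at an unadjusted limma p under 0.05. Dropping wild-type replicate 1 took the median to 0.02, and dropping wild-type replicate 2 took it to 0.14. Dag1, the dystroglycan gene, read 234.9 and 232.1 in transgenic and 192.6 and 207.4 in wild-type muscle (1.17-fold, limma adjusted p = 0.539). Plec, the gene of the linker plectin, read 232.2 and 231.6 against 187.3 and 206.3 (1.18-fold, limma adjusted p = 0.539). Scn4a, the muscle sodium channel gene, had a log2 difference of 0.12 (SE 0.08). Utrn and Dmd, the genes of utrophin and dystrophin, were below the threshold on all 4 arrays.

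Transcription factors and activity-regulated genes came next. Myog, the E-box factor that drives receptor genes after denervation, read 119.2 and 104.3 in transgenic and 91.2 and 101.9 in wild-type muscle, without overlap (log2 fold change 0.21, SE 0.10, limma adjusted p = 0.671). Myod1 was at 0.10 (SE 0.06) and the activity-regulated kinase gene Sik1 at 0.42 (SE 0.23). In that list 10 of 14 genes entered the fit, with 7 positive, 0 at an unadjusted limma p under 0.05 in either direction, a median of 0.12 and a range of -0.25 to 0.73, the highest being Gadd45a, a stress-response gene induced by denervation, named here after its value was seen. The median was 0.22 without transgenic replicate 1 and 0.06 without transgenic replicate 2. Among neuregulin and Ets genes, 3 of 8 entered, the Ets-factor genes Etv4 at 0.09 (SE 0.06) and Etv5 at 0.06 (SE 0.06), and Gabpb1, whose product belongs to the factor that binds the N-box, at -0.05 (SE 0.07). Of the 11 nicotinic subunits that are not part of the muscle receptor, Chrna9 alone entered, at 0.10 (SE 0.06), and 8 were below the threshold on all 4 arrays.

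Genes of immature muscle, which normally fall with the gamma subunit after birth, gave a median of 0.37 over 8 of 10 genes, with 7 positive and 4 higher at an unadjusted limma p under 0.05. The median was 0.18 without transgenic replicate 1 and 0.55 without transgenic replicate 2. Myh8, the perinatal myosin heavy chain gene, read 123.6 and 111.6 in transgenic and 92.3 and 95.7 in wild-type muscle (log2 fold change 0.32, SE 0.08). Cdkn1c and Igf2, an imprinted cell-cycle inhibitor gene and an imprinted growth factor gene, were at 0.73 (SE 0.19) and 0.79 (SE 0.21). The list's mean log2 deviation from each gene's average over the arrays was 0.39 and 0.04 in transgenic and -0.27 and -0.16 in wild-type muscle. It was highest on transgenic replicate 1, as were Chrnb1, Chrng and Chrne, whereas Chrna1 was highest on transgenic replicate 2. The mean deviations of the basal lamina, postsynaptic scaffold, other nicotinic, satellite-cell and muscle fibre lists were also highest on transgenic replicate 1. Those of the remaining related lists were highest on other arrays. The part of the immature-muscle signal in the members' values was not tested. Itga7, a laminin receptor subunit gene of fibres and satellite cells, read 195.5 and 206.9 against 154.3 and 160.0 (1.28-fold, limma adjusted p = 0.482). Vcam1, an adhesion gene of satellite cells and endothelium, was at 0.25 (SE 0.09). Sdc4, also of the satellite-cell list, read lower in transgenic muscle, at 156.2 and 153.1 against 162.8 and 171.0 (log2 fold change -0.11, SE 0.06). Of that list 4 of 9 genes entered the fit, 3 positive and 1 negative, with a median of 0.15. The median ran from 0.11 without wild-type replicate 2 to 0.17 without wild-type replicate 1.

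**Figure D5:**
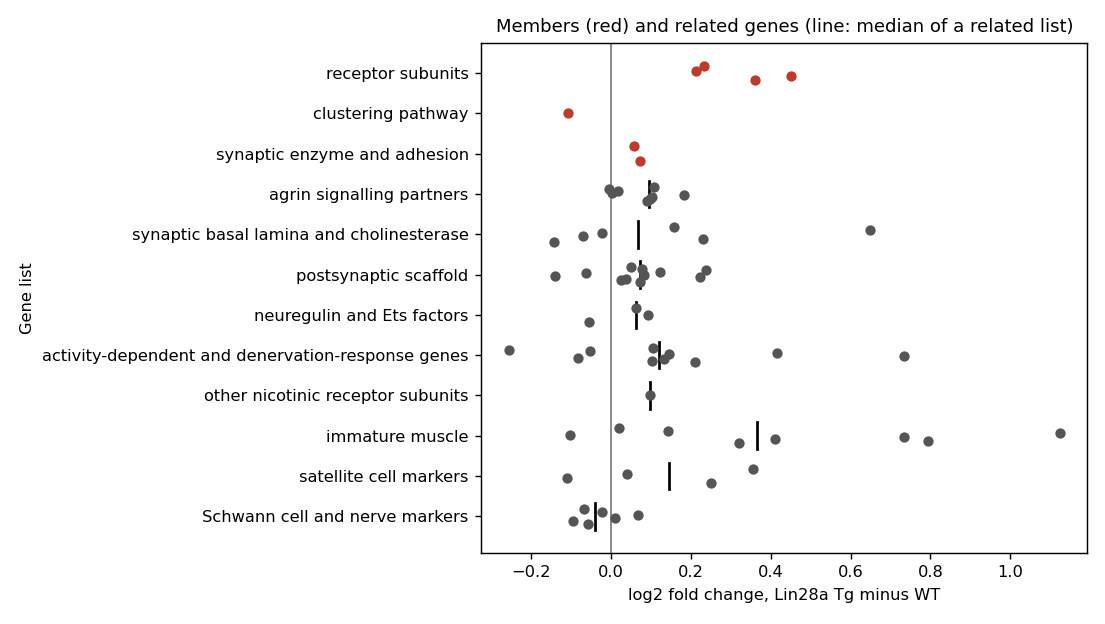
Log2 fold change, transgenic minus wild type, of each gene above background in the member groups (red) and in lists of related genes (grey; vertical lines are list medians); each point is 1 gene. The 4 receptor subunits lie between 0.21 and 0.45, Chrng against wild-type values below background, Rapsn at -0.11, and the junction partner lists have medians of 0.06 to 0.12 against 0.37 for immature muscle.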

How the data were processed

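Quadriceps RNA of 2 Lin28a transgenic and 2 wild-type mice was made into biotin cRNA for Illumina Ref-8 arrays, per the labels. The deposited intensity values are linear, with 1 row per gene symbol; the authors had normalized them between arrays (at equal rank their values spread by a median of 0.092%) and not subtracted background, as the values show (lowest 72.8). The software that did this is not given in the sources used here. Another table was left out because its 8 value columns match no sample label.

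Symbols were updated through RefSeq's gene table (14090 current, 3066 older, 50 with several matches, 885 with none), leaving 17904 genes, the brightest row per symbol. The threshold of 90.0 is the mode of all values (84.8) plus 1.645 SD of the values below it (SD 0.053 on the log2 scale), and 7891 genes above it on at least 2 arrays were tested. Log2 intensities were compared by limma 3.58.1 (lmFit, eBayes; R 4.3.3), with Benjamini-Hochberg adjustment over all genes tested at 0.05; the fit was tested on simulated data. Python 3.11.15 with pandas 2.3.3 made the tables. Background left in the values shrinks the folds of dim genes.

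The members, lists and filter were chosen with earlier results of these data known. Named genes are the 10 members, Lin28a and up to 3 genes with the smallest p per list; Gadd45a, and markers named as below the threshold on all 4 arrays, fall outside this rule and were named after their values were seen. The alternatives tried were a pseudocount of 16, all genes unfiltered, a filter of 92.3 on every array, trended robust eBayes, a replicate block, normexp with offsets of 16 and 50, and each array left out in turn. The array's probes are not identified beyond the gene symbol. No genome was used; upstream sequences are those of RefSeq's table.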

Additional observations from a re-analysis of the deposited data

How the results depend on the processing

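No member passed an adjusted p of 0.05 under any alternative run. Of 74 alternative values of the members' log2 fold changes, 73 kept their direction. Many of them could not move: the unfiltered, stricter-filter, trended robust eBayes and replicate-block runs leave a log2 fold change as it was. The direction of Chrng was also fixed by the filter. Ache ran from -0.028, without transgenic replicate 1, to 0.177 with 1 array left out. The gamma minus epsilon difference of -0.02 became 0.046 with normexp at an offset of 16 and ran from -0.124 to 0.083 with 1 array left out; the cause was not tested. The count of members higher at an unadjusted limma p under 0.05 was 2 in the main setting. Those were Chrna1 and Chrng, and the filter fixed the direction of Chrng. The count was 1 with log2 of intensity plus 16 and 1 under the stricter filter, where Chrng was not among the genes tested. It was 3 with trended robust eBayes, where Chrnb1 was added. The count of all genes past an adjusted p of 0.05 ran from 0 to 15 with 1 array left out, reaching 15 without wild-type replicate 2. Of 142 alternative list medians, 30 moved by more than the spread between replicates. Whether same-numbered samples belong together is not stated in the labels. Their deviations correlated at 0.04 across genes, but 1 correlation from 2 samples per group cannot decide whether they were paired. With the replicate block, 0 members passed, 0 of all genes passed, 2 members (Chrna1 and Chrne) were higher at an unadjusted p under 0.05, and the gamma minus epsilon difference was -0.02. Chrnd and Musk were not above background on any array and Dok7 on 1, which limits what can be read for them.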
